A study of Mus musculus with 6 samples.

Results

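Malat1, Neat1, Kcnq1ot1, Gas5, Snhg1, Snhg3, Snhg5, Snhg6, Snhg8 and Snhg12 are long noncoding RNAs (lncRNAs) that are either retained in the nucleus or host small nucleolar RNAs (snoRNAs) in their introns. They were taken by gene symbol from the deposited expression table and are 10 of its 55487 gene rows, 3 nuclear and 7 snoRNA hosts. The table comes from RNA-seq of mouse bone marrow cells that the labels call LT-HSCs, blood-forming stem cells able to rebuild all lineages for the life of the animal. It held 3 libraries of Mmrn1-high cells and 3 libraries of Mmrn1-low cells, and all 6 carry the genotype Mmrn1-GFP. The gene Mmrn1 codes for multimerin 1, found in platelets and in the vessel lining. The age of the mice, the surface gate, how high and low were set, the nature of the reporter allele and the number of animals behind a library are not stated in the labels. Nothing in the labels ties replicates to separate mice, so every p-value reflects the spread among these libraries alone, and that spread may be technical.

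Malat1 and Neat1 are neighbouring genes whose RNAs stay in the nucleus, Malat1 in nuclear speckles, where splicing factors gather, and Neat1 as the scaffold of paraspeckles. Kcnq1ot1 is transcribed from the paternal chromosome inside Kcnq1 and silences genes around it in cis. The snoRNA hosts are spliced RNAs whose introns are trimmed to box C/D or box H/ACA snoRNAs, the guides for chemical modification of ribosomal RNA, while the spliced remainder is exported and often removed during translation.

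The 3' ends of Malat1 and Neat1 are shown because the libraries were made from RNA captured by its poly-A, and how that capture acted on these RNAs was not tested. Both long transcripts lack the usual poly-A tail and end at a genome-encoded A-rich tract that pairs with U-rich stretches upstream in a triple helix, as known from mouse and human. The sequences are from GENCODE M21 transcripts on GRCm38, minus strand, chr19:5795972-5796081 for Malat1 and chr19:5824708-5824817 for Neat1. Capitals mark the 3 stretches of at least 10 bases that both windows share, which are 13, 16 and 11 bases long.
Malat1: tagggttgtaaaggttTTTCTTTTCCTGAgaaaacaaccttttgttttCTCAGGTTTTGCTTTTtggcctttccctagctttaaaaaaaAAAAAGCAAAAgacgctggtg
Neat1: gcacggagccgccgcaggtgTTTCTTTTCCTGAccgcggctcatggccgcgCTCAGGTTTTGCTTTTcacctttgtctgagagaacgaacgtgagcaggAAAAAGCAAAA
The A-rich tract closes the annotated long Neat1 transcript, with 0 bases after it, and lies 292 bases before the annotated end of Malat1. The letters AAAAGCAAAA, searched on the same strand, occurred in the last 110 bases of 178 of 138029 annotated transcripts (0.129%). The annotation also holds a Neat1 transcript of 3004 bases beside the long one of 20771 bases, and the table gives 1 value for both.

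Promoters of the 4 snoRNA hosts called higher in Mmrn1-high cells are shown with their start bases. Many snoRNA hosts are known as terminal oligopyrimidine genes, which begin transcription at a C followed by a run of C and T. The windows run from 45 bases before the annotated start to 24 after it and are from RefSeq on GRCm38.p6. Capitals mark TATANA beginning 40 to 20 bases before the start, and a run of at least 5 C or T that begins at the start base, both on the gene's strand. They lie at chr1:161035121-161035190 on the plus strand (the second annotated start of Gas5), chr19:8723442-8723511 plus, chr3:123508312-123508381 minus and chr4:132308633-132308702 plus.
Gas5: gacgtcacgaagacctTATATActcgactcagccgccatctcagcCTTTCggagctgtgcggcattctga
Snhg1: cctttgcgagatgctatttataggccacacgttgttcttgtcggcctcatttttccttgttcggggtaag
Snhg8: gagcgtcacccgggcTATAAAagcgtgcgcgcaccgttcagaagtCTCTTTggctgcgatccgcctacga
Snhg12: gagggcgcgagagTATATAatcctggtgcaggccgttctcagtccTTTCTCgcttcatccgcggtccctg
RefSeq windows matched 8 of the 10 genes, 9 windows in all because Gas5 has a pair of starts, and Neat1 and Snhg6 had no entry. TATANA was in 4 of the 9 windows, those of Gas5 at this start, Snhg5, Snhg8 and Snhg12, against 3.11% of 32851 windows of all genes. The C or T run was in 3 of the 9, those of Gas5 at this start, Snhg8 and Snhg12, against 4.44% of all windows. CCAAT, searched on both strands over the 300 bases of a window, was in 4 of the 9 (Snhg3, Snhg5, Snhg8 and Kcnq1ot1) against 37.4%. TGACGTCA, also on both strands, was in this Gas5 window alone among the 9, partly before the stretch shown, against 1.79% of all windows. The Malat1 and Snhg1 windows, and that of the first annotated start of Gas5, had no match in any of these searches. These are matches of letters in a window and say nothing of the factors that bind there.

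Among the snoRNAs that the hosts carry, 4 are shown that lie in hosts called higher, 3 of the box C/D kind and 1 of the box H/ACA kind. Capitals mark the C box TGATGA and the D box CTGA of box C/D snoRNAs and the terminal ACA of a box H/ACA snoRNA. These boxes are the sites where the core snoRNA proteins bind. The first is at chr1:161036057-161036139 and the next at chr1:161038082-161038158, both plus in Gas5, then chr4:132310691-132310764 plus in Snhg12 and chr3:123507937-123508066 minus in Snhg8 (GENCODE M21, GRCm38).
Gm22357: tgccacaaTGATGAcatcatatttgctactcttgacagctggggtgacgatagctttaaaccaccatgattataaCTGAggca
Snord47: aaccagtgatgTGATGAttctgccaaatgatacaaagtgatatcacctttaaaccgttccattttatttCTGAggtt
Snord99: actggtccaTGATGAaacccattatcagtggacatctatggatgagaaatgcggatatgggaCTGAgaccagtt
Snora24: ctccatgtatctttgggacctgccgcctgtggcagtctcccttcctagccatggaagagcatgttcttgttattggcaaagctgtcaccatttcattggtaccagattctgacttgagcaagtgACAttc
The table holds 29 snoRNA rows inside the 7 hosts, 10 in Gas5, 8 in Snhg1, 5 in Snhg12, 2 each in Snhg3 and Snhg5, and 1 each in Snhg6 and Snhg8. Of these, 16 read exactly 1 in all 6 libraries, although the libraries' totals ranged from 11595104 to 30909990 counts. Snord47 and Snord99 are among them. The highest count of any of the 29 was 298, for Gm22357 in Mmrn1-high replicate 2. Over all rows, 327 read 1 in every library, and 94.5% of them are shorter than 200 bases. snoRNAs have no poly-A tail, so these rows are not read as snoRNA levels, and the results below concern the hosts.

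The groups were checked by Mmrn1 and by marker genes. Mmrn1 was at 8.82, 9.80 and 11.5 CPM in Mmrn1-high replicates 1 to 3 and at 5.65, 5.61 and 5.82 CPM in Mmrn1-low replicates 1 to 3 (CPM, counts scaled to a common total with TMM factors, which correct for composition). It was higher in every Mmrn1-high library, with a log2 fold change of 0.82 ± 0.12 (SE, edgeR quasi-likelihood adjusted p = 4.8e-04). Of 9 long-term stem cell markers, 8 were called higher in Mmrn1-high cells and 0 lower, and the list summed to 620 to 658 CPM in Mmrn1-high libraries and 403 to 428 CPM in Mmrn1-low libraries. All 6 granulocyte progenitor markers were called lower in Mmrn1-high cells, where they summed to 4854 to 4927 CPM, against 27109 to 28355 CPM in Mmrn1-low cells. All 6 macrophage markers were also called lower, at 15.2 to 16.9 CPM summed in Mmrn1-high and 137 to 139 CPM in Mmrn1-low libraries. Mature neutrophil markers ran the opposite way to those of granulocyte progenitors, with all 6 called higher at 3075 to 3358 CPM summed in Mmrn1-high and 2008 to 2182.4 CPM in Mmrn1-low libraries. Of 5 platelet and megakaryocyte markers tested, 4 were called higher and 0 lower (219 to 227 CPM summed in Mmrn1-high, 88.0 to 89.3 CPM in Mmrn1-low). B and plasma cell markers had 3 of 5 called higher and 1 lower, and T and NK cell markers 2 of 3 higher and 1 lower. Their sums were nonetheless lower in Mmrn1-high libraries, at 108 to 151 CPM against 283 to 412 CPM in Mmrn1-low for B and plasma cells, and at 144 to 146 CPM against 459 to 465 CPM in Mmrn1-low for T and NK cells. Of 6 erythroid markers, 1 was called higher and 2 lower, at 206 to 209 CPM summed in Mmrn1-high and 229 to 238 CPM in Mmrn1-low. No marker of these lists was at 0 in all libraries. All 3 surface markers of multipotent progenitors (Cd34, Flt3 and Cd48) were called higher in Mmrn1-high cells. They summed to 1501 to 1537 CPM in Mmrn1-high and 586 to 610 CPM in Mmrn1-low libraries. Of these, the receptor gene Flt3 was at 546 CPM in Mmrn1-high and 156 CPM in Mmrn1-low cells. RNA of later progenitor genes was thus present in both groups beside that of stem cell genes, and that of these 3 genes was higher in Mmrn1-high cells. These differences accompany every result on the lncRNAs, and their part in those results was not tested. In bulk RNA, a different share of cells of some type and a different amount of RNA per cell cannot be told apart.

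All 10 lncRNAs passed the filter on low counts. In the edgeR quasi-likelihood test, with a threshold of 0.05 after Benjamini-Hochberg adjustment over all genes tested, 5 of the 10 were called higher in Mmrn1-high cells (Malat1, Gas5, Snhg1, Snhg8 and Snhg12), 0 were called lower and 5 were not called (Neat1, Kcnq1ot1, Snhg3, Snhg5 and Snhg6). No lncRNA of the 10 fell at an unadjusted p under 0.05 either, and DESeq2 and limma voom also called 0 lower. Of all 15419 genes tested, 61.2% were called in either direction, 30.7% higher and 30.5% lower. Of the 769 tested genes annotated as lncRNAs, 52.7% were called in either direction, 44.5% higher and 8.19% lower, so the share of the 10 that were higher is close to that of lncRNAs as a class. Their median log2 fold change was 0.21, against 0.51 for the 769 lncRNA genes and 0.01 for all genes tested. Gas5 moved by more than 68.7% of all tested genes in absolute fold change, and Malat1 by more than 30.7% of them. Libraries of the groups were fully separate for 4 of the 10 (Malat1, Gas5, Snhg1 and Snhg8), and for 67.8% of all genes tested, 34.1% being higher in Mmrn1-high.

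**Figure D1:**
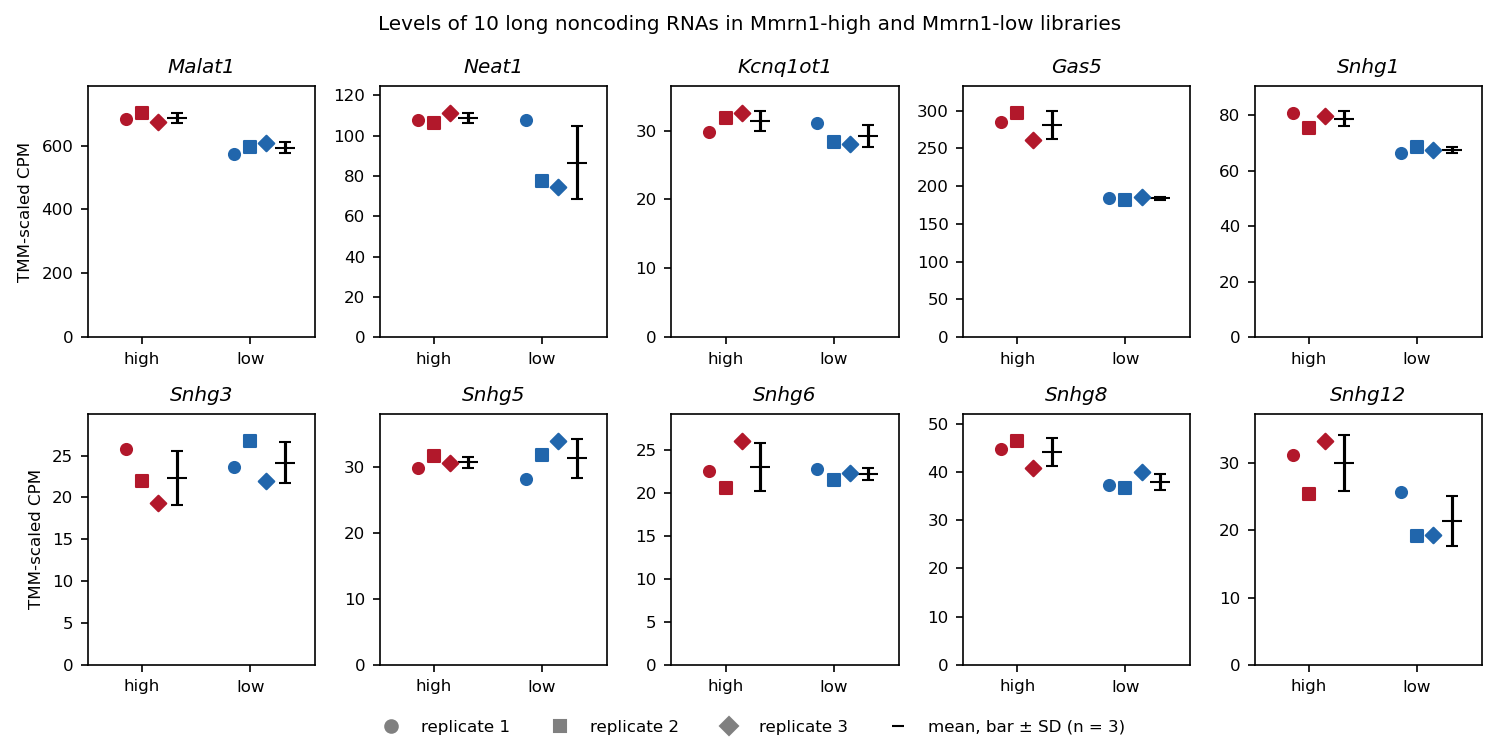
TMM-scaled CPM (linear axes from 0) of each of the 10 lncRNAs in the 3 Mmrn1-high libraries (red, left) and the 3 Mmrn1-low libraries (blue, right), with the mean and SD beside each group. Malat1, Gas5, Snhg1 and Snhg8 have groups that do not overlap, and Mmrn1-low replicate 1 lies apart from the other Mmrn1-low libraries for Neat1 and Snhg12.

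Malat1 (chr19:5795690-5802672, minus strand) had 8349, 22785 and 10039 counts in Mmrn1-high replicates 1 to 3 and 9061, 8085 and 17473 counts in Mmrn1-low replicates 1 to 3. Scaled, these were 682, 702 and 673 CPM in Mmrn1-high and 575, 596 and 609 CPM in Mmrn1-low libraries. Every Mmrn1-high library was above every Mmrn1-low library, and libraries of a group lay close together. The means were 686 ± 15.2 CPM in Mmrn1-high and 593 ± 17.1 CPM in Mmrn1-low cells (SD, n = 3 each). The log2 fold change was 0.21 ± 0.03 (SE), and the edgeR adjusted p was 5.3e-04.

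As a share of each library's own total, Malat1 took 0.0720%, 0.0737% and 0.0705% of counts in Mmrn1-high replicates 1 to 3 and 0.0544%, 0.0566% and 0.0579% in Mmrn1-low replicates 1 to 3. The 95% Wilson intervals of these shares were at most 0.00154 percentage points to either side and cover counting error only. The groups did not overlap. The difference was 0.0158 percentage points, with an exact two-sided permutation p of 0.1, the smallest that 3 libraries against 3 allow. On the opposite strand, Gm37376 shares 453 exon bases with Malat1 and had 11 to 38 counts per library. Transcripts of the mitochondrial genome took 2.41% to 2.43% of counts in Mmrn1-high and 2.001% to 2.11% in Mmrn1-low libraries, and without them the Malat1 shares were 0.0723% to 0.0756% in Mmrn1-high and 0.0555% to 0.0591% in Mmrn1-low libraries.

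Neat1 (chr19:5824708-5845478, minus strand) lies 22036 bases from Malat1 on the same strand. It was at 108, 106 and 111 CPM in Mmrn1-high replicates 1 to 3 and at 107, 77.7 and 74.6 CPM in Mmrn1-low replicates 1 to 3. Mmrn1-low replicate 1 lay within the Mmrn1-high range, while the other Mmrn1-low libraries were well below it, so the groups overlapped. The log2 fold change of 0.33 ± 0.15 (SE) was not called, at an edgeR adjusted p of 0.115. Without Mmrn1-low replicate 1 it was 0.52 with an adjusted p of 6.5e-05, and over all alternatives the adjusted p ranged from 6.5e-05 to 0.274. DESeq2 called it, with an adjusted p of 0.041, and so did limma voom with quality weights, at 0.0467. The limma fits on FPKM also called it. Their adjusted p was 0.0271 (pseudocount 0.1), 0.049 (pseudocount 1, no filter) and 0.0257 (pseudocount 1).

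The ratio of Malat1 to Neat1 counts does not depend on scaling. It was 6.33, 6.60 and 6.05 in Mmrn1-high replicates 1 to 3 and 5.35, 7.68 and 8.16 in Mmrn1-low replicates 1 to 3. The Mmrn1-high ratios lay between the Mmrn1-low ones, and the log2 difference of -0.14 had an exact two-sided permutation p of 0.5.

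Kcnq1ot1 (chr7:143203458-143296549, minus strand) is annotated as a single exon of 93092 bases inside Kcnq1. It was at 29.8, 31.8 and 32.6 CPM in Mmrn1-high replicates 1 to 3 and at 31.0, 28.4 and 28.1 CPM in Mmrn1-low replicates 1 to 3. Mmrn1-low replicate 1 was again the highest of its group and lay inside the Mmrn1-high range. The log2 fold change of 0.11 ± 0.07 (SE) was not called (edgeR quasi-likelihood adjusted p = 0.196). Kcnq1, on the opposite strand and sharing 121 exon bases with it, had 0 to 1 counts per library.

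The genes that Kcnq1ot1 lies among moved in both directions. Of 15 genes listed for the imprinted domain, 11 were tested, of which 4 were called higher in Mmrn1-high cells, 3 lower and 4 were not called (median log2 fold change 0.09). The share called was 63.6%, close to the 61.2% of all genes tested. With a filter of 5 CPM in 3 libraries, 1 was called higher and 1 lower, and in the filtered FPKM fits 3 higher and 1 lower. The genes called higher were Cdkn1c, Phlda2, Slc22a18 and Osbpl5. Cdkn1c, a cell cycle inhibitor, differed by 1.46 ± 0.23 (SE), at 3.82 CPM in Mmrn1-high and 1.35 CPM in Mmrn1-low cells. Phlda2, a regulator of placental growth, differed by 1.75 ± 0.53, at 1.34 CPM in Mmrn1-high and 0.343 CPM in Mmrn1-low. Its counts were few, 25, 32 and 15 in Mmrn1-high and 1, 6 and 15 in Mmrn1-low replicates 1 to 3. The transporter gene Slc22a18 differed by 1.06 ± 0.23, at 4.33 CPM in Mmrn1-high and 2.14 CPM in Mmrn1-low. Osbpl5, a lipid transfer protein, differed by 1.22 ± 0.07, at 23.5 CPM in Mmrn1-high and 10.1 CPM in Mmrn1-low. Those called lower were Cars, the cysteinyl-tRNA synthetase (-0.80 ± 0.05), Tnfrsf23, a decoy receptor (-1.14 ± 0.21), and the tetraspanin gene Cd81 (-0.15 ± 0.04). Cdkn1c, Phlda2 and Slc22a18 are among the genes that Kcnq1ot1 is known to silence on the paternal chromosome, and the counts do not separate the parental alleles.

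Gas5 (chr1:161034422-161038539, plus strand), named for its rise in growth-arrested cells and the host of 10 of the snoRNA rows, had the largest fold change of the 10 with all libraries. Without Mmrn1-high replicate 2 or Mmrn1-low replicate 1, Snhg12 was above it (0.61 against 0.59 and 0.64 against 0.62, log2). Gas5 was at 285, 297 and 261 CPM in Mmrn1-high replicates 1 to 3 and at 185, 182 and 185 CPM in Mmrn1-low replicates 1 to 3. The lowest Mmrn1-high library was far above the highest Mmrn1-low library, and the Mmrn1-low libraries were almost equal. The means were 281 ± 18.2 CPM in Mmrn1-high and 184 ± 1.999 CPM in Mmrn1-low cells (SD, n = 3 each). The log2 fold change was 0.61 ± 0.05 (SE), or 1.53-fold, and the edgeR adjusted p was 1.1e-05.

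Against Malat1 in the same library, Gas5 counts were 41.8%, 42.3% and 38.9% of Malat1 counts in Mmrn1-high replicates 1 to 3 and 32.1%, 30.5% and 30.5% in Mmrn1-low replicates 1 to 3. The groups did not overlap, so the larger difference of Gas5 than of Malat1 does not rest on the scaling of libraries. The log2 difference of the ratio was 0.40, with an exact two-sided permutation p of 0.1, the smallest possible here. Of the counts of the 7 hosts together, Gas5 made up 53.2% to 57.3% in Mmrn1-high and 47.0% to 47.5% in Mmrn1-low libraries.

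**Figure D2:**
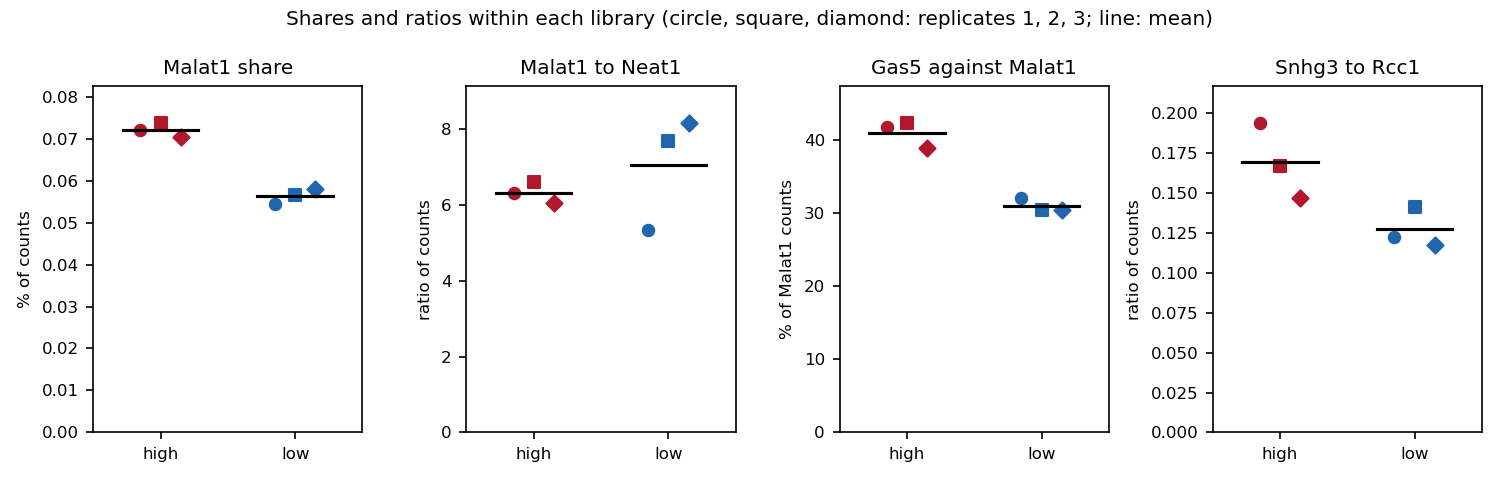
Shares and ratios within each library (linear axes from 0) for Mmrn1-high (red, left) and Mmrn1-low (blue, right): Malat1 as % of counts, Malat1 over Neat1, Gas5 as % of Malat1 counts, and Snhg3 over Rcc1. The groups are apart for the Malat1 share, for Gas5 against Malat1 and for Snhg3 to Rcc1, and the Mmrn1-high Malat1 to Neat1 ratios of 6.05 to 6.60 lie inside the Mmrn1-low range of 5.35 to 8.16.

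Snhg1 (chr19:8723475-8726443, plus strand), which hosts 8 of the snoRNA rows, was at 80.9, 75.6 and 79.8 CPM in Mmrn1-high replicates 1 to 3 and at 66.4, 68.7 and 67.7 CPM in Mmrn1-low replicates 1 to 3. The groups did not overlap. It differed by a log2 fold change of 0.22 ± 0.04 (SE), and the edgeR adjusted p was 0.0024. Its divergent neighbour Slc3a2, an amino acid transporter subunit 106 bases away, was at 155 CPM in Mmrn1-high and 166 CPM in Mmrn1-low cells and was not called (-0.09 ± 0.07 SE).

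Snhg8 (chr3:123507552-123508404, minus strand), the host of Snora24, was at 44.9, 46.5 and 40.9 CPM in Mmrn1-high replicates 1 to 3 and at 37.4, 36.7 and 39.9 CPM in Mmrn1-low replicates 1 to 3. The groups did not overlap, but the lowest Mmrn1-high and the highest Mmrn1-low library were close. Its log2 fold change was 0.21 ± 0.07 (SE), and the edgeR adjusted p was 0.0219. The call was lost with DESeq2 (adjusted p = 0.093) and without Mmrn1-high replicate 2, Mmrn1-low replicate 1 or Mmrn1-low replicate 2 (edgeR adjusted p = 0.0605, 0.0577 and 0.0665), and over all alternatives the adjusted p ranged from 0.00178 to 0.093.

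Snhg12 (chr4:132308623-132311024, plus strand), which hosts Snora16a, Snora44, Snora61 and Snord99, was at 31.3, 25.4 and 33.4 CPM in Mmrn1-high replicates 1 to 3 and at 25.7, 19.2 and 19.4 CPM in Mmrn1-low replicates 1 to 3. Mmrn1-low replicate 1 was just above Mmrn1-high replicate 2, so the groups overlapped. Its log2 fold change was 0.48 ± 0.15 (SE), and the edgeR adjusted p was 0.0267. The call was lost when Mmrn1-high replicate 1 or 3 or Mmrn1-low replicate 2 or 3 was left out (adjusted p = 0.075, 0.0833, 0.0922 and 0.096), and without Mmrn1-low replicate 1 the log2 fold change was 0.64 with an adjusted p of 0.0045, the lowest over all alternatives.

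Snhg3, Snhg5 and Snhg6 were not called. Snhg3 (chr4:132348014-132353686, minus strand), the host of Snora73a and Snora73b, was at 25.7, 21.98 and 19.3 CPM in Mmrn1-high replicates 1 to 3 and at 23.6, 26.8 and 21.98 CPM in Mmrn1-low replicates 1 to 3. Its groups overlapped, with a log2 fold change of -0.11 ± 0.12 (SE, edgeR adjusted p = 0.451), which was 0.04 with scaling by library size alone.

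Snhg3 shares its start region and 135 exon bases with Rcc1, the exchange factor for the GTPase Ran, on the same strand. Rcc1 was at 133, 132 and 131 CPM in Mmrn1-high and at 192, 189.8 and 187 CPM in Mmrn1-low replicates 1 to 3 and was called lower in Mmrn1-high cells (-0.52 ± 0.03 SE, edgeR adjusted p = 1.9e-06). The ratio of Snhg3 to Rcc1 counts was 0.194, 0.167 and 0.147 in Mmrn1-high and 0.123, 0.141 and 0.118 in Mmrn1-low replicates 1 to 3. The groups did not overlap for this ratio, which was given no test, and the labels do not say how reads over the shared bases were assigned.

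Snhg5, the host of Snord50a and Snord50b, was at 29.99, 31.7 and 30.7 CPM in Mmrn1-high replicates 1 to 3 and at 28.2, 31.9 and 34.1 CPM in Mmrn1-low replicates 1 to 3. The Mmrn1-high libraries all lay inside the Mmrn1-low range (-0.03 ± 0.08 SE, edgeR adjusted p = 0.781, and 0.12 with library size alone). The deposited table places this gene at chr9:88495268-88523562, a longer interval than the chr9:88521050-88522929 of GENCODE M21, so no level per length is given for it. Snhg6 (chr1:9941959-9944118, minus strand), the host of Snord87, was at 22.6, 20.6 and 26.1 CPM in Mmrn1-high replicates 1 to 3 and at 22.8, 21.5 and 22.4 CPM in Mmrn1-low replicates 1 to 3. Its Mmrn1-low libraries all lay inside the Mmrn1-high range (0.05 ± 0.09 SE, edgeR adjusted p = 0.677).

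Directions are relative to the TMM scaling. With library size alone, log2 fold changes moved up by a median of 0.15, called genes were 66.0% higher and 34.0% lower (50.2% and 49.8% with TMM), and 7 of the 10 lncRNAs were called higher and 0 lower. The additional 2 were Neat1 (0.48, edgeR adjusted p = 0.0377) and Kcnq1ot1 (0.26, adjusted p = 0.009). Malat1, Gas5, Snhg1, Snhg8 and Snhg12 were called higher under both scalings.

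**Figure D3:**
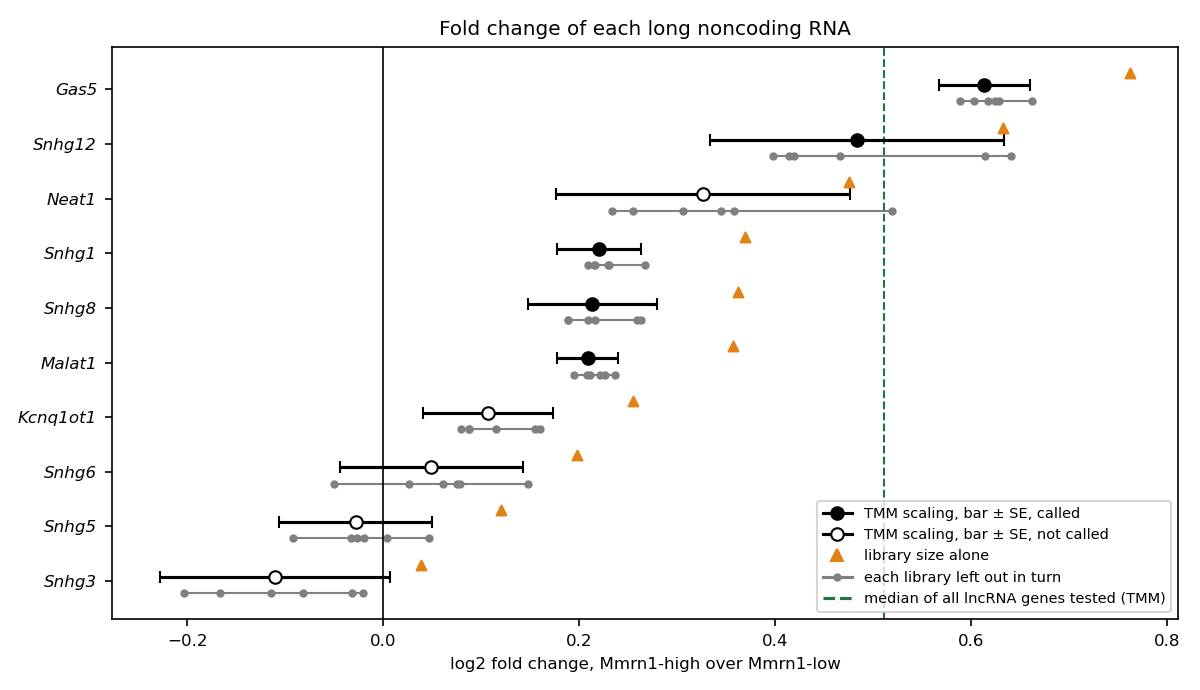
Log2 fold change of each lncRNA, Mmrn1-high over Mmrn1-low, with TMM scaling (circles, bars SE, filled where called), with library size alone (triangles) and with each library left out in turn (grey). Gas5 is highest at 0.61, Snhg3 lowest at -0.11, and the dashed line is the median of 0.51 of the 769 lncRNA genes under TMM scaling.

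Levels between genes were compared per kilobase of the union of a gene's annotated exons. On this scale the order in Mmrn1-high cells was Malat1 at 98.2 ± 2.18 CPM per kb, Gas5 at 74.8 ± 4.85, Snhg8 at 51.7 ± 3.39, Snhg1 at 26.5 ± 0.936, Snhg3 at 22.7 ± 3.28, Snhg6 at 20.2 ± 2.44, Snhg12 at 12.5 ± 1.72, Neat1 at 5.22 ± 0.119 and Kcnq1ot1 at 0.337 ± 0.0152 (SD, n = 3). In Mmrn1-low cells Malat1 was at 85.0 ± 2.45 CPM per kb, Gas5 at 48.9 ± 0.532, Snhg8 at 44.6 ± 1.95, Snhg3 at 24.5 ± 2.47, Snhg1 at 22.8 ± 0.390, Snhg6 at 19.4 ± 0.575, Snhg12 at 8.92 ± 1.54, Neat1 at 4.17 ± 0.875 and Kcnq1ot1 at 0.313 ± 0.0173. The ranges of Snhg1 and Snhg3 overlapped in both groups. Snhg1 was the higher of the pair within each Mmrn1-high library, but in Mmrn1-low cells Snhg3 was the higher in replicates 1 and 2 and Snhg1 in replicate 3. Snhg3 and Snhg6 overlapped in Mmrn1-high cells, where Snhg6 was the higher in replicate 3 alone. The other neighbours in the order did not overlap in either group. The divisor is the exon union whichever isoform gave the reads, and for Neat1 the short and long transcripts differ widely in length. For Snhg1, Snhg8 and Snhg12 the union (2969, 853 and 2402 bases) fills the whole gene, so introns of spliced isoforms are in the divisor. The Gas5 union (3760 bases) falls short of the whole gene but covers all 10 snoRNA rows inside it. Intron bases of spliced isoforms are therefore in the Gas5 divisor too. For Snhg3 and Snhg6 the union (986 and 1146 bases) leaves part of the gene out. How this bears on the order of the hosts was not tested.

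The deposited FPKM values give a different order. For 97.6% of 11395 genes with at least 200 counts, the length behind the deposited FPKM equalled, within 0.1%, the sum of all distinct annotated exons, so that bases shared by exons of several isoforms were counted repeatedly. That sum was 3.75 times the exon union for Snhg1, 3.11 times for Gas5, 2.78 times for Snhg12 and 2.05 times for Snhg8, but 1.24 times for Malat1 and 1.23 times for Neat1, and for the single exon of Kcnq1ot1 both lengths are the same. By mean deposited FPKM, Snhg8 stood above Gas5 in Mmrn1-high cells (26.4 and 25.3 FPKM) and in Mmrn1-low cells (20.6 and 14.9 FPKM), and Snhg1 (7.44 FPKM in Mmrn1-high and 5.76 FPKM in Mmrn1-low) stood below Snhg3 and Snhg6. The divisor is the same in all libraries of a gene and leaves its fold change as it is.

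**Figure D4:**
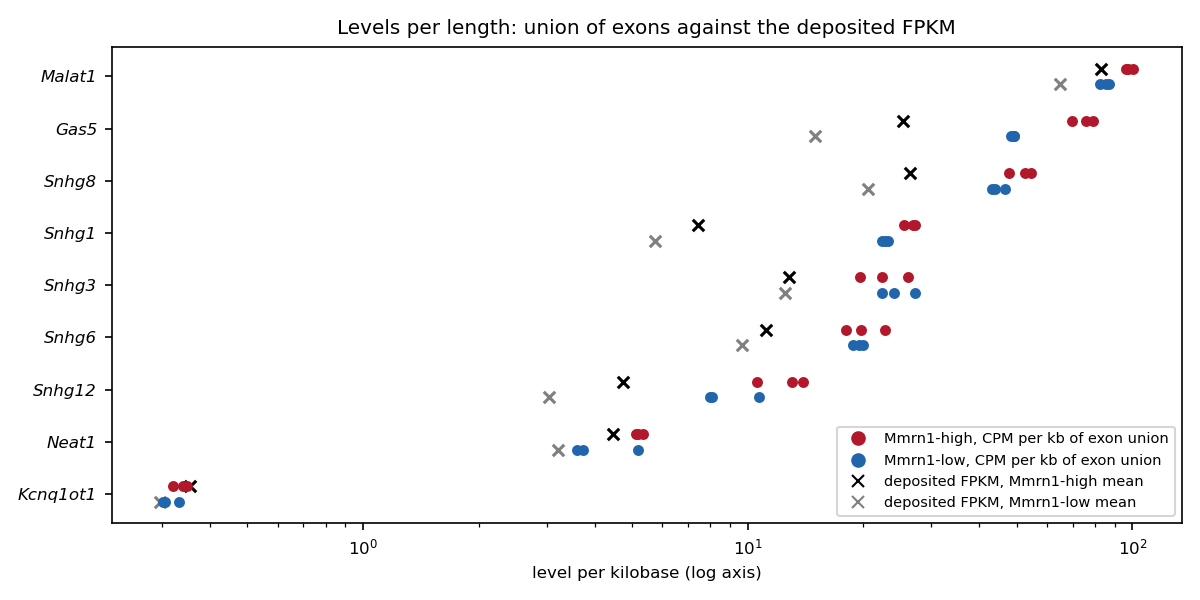
Level per kilobase (log axis) of the 9 lncRNAs with a matching gene model, as TMM-scaled CPM per kb of exon union in each Mmrn1-high (red, upper) and Mmrn1-low (blue, lower) library, with the mean deposited FPKM as crosses (black for Mmrn1-high, grey for Mmrn1-low). The crosses of Gas5 and Snhg1 lie far left of their points, where the summed exon length is over 3 times the union.

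Of 14 other lncRNAs listed as snoRNA hosts, 10 were tested, 6 were called higher and 0 lower in Mmrn1-high cells. Their median log2 fold change was 0.37, below the 0.51 of all 769 lncRNA genes tested, of which 44.5% were called higher. DESeq2, which tested all 14, called 4 higher and 0 lower, edgeR called 4 higher without Mmrn1-low replicate 1 or 3, with no filter on low counts 1 was called lower, and 0 of the 10 fell at an unadjusted p under 0.05 in the edgeR test. Zfas1 was at 72.3 CPM in Mmrn1-high and 45.3 CPM in Mmrn1-low cells (0.67 ± 0.10 SE), and the others called were Snhg17 (0.33 ± 0.07), Epb41l4aos (0.42 ± 0.10), Dancr (0.77 ± 0.21), Snhg16 (0.28 ± 0.09) and Snhg15 (0.24 ± 0.09). The 29 protein-coding snoRNA hosts tested were divided, with 12 called higher (7 with DESeq2), 9 lower and a median of 0.09. The share called was 72.4%, against 61.2% of all genes tested. Among these hosts, Tpt1, a translationally controlled growth gene, was called higher (0.37 ± 0.03) and Ncl, the nucleolar protein nucleolin, lower (-0.38 ± 0.03).

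Genes for the proteins that assemble on snoRNAs were lower in Mmrn1-high cells. Of 11 box C/D snoRNP genes tested, 10 were called lower and 0 higher in Mmrn1-high cells (median log2 fold change -0.29). All 6 box H/ACA snoRNP genes were called lower, with a median of -0.36. Of all genes tested, 30.5% were called lower. In both lists 0 rose at an unadjusted p under 0.05 in the edgeR test, and DESeq2 and limma voom called 0 higher. Ruvbl2, an ATPase of the box C/D assembly machinery, was at 145 CPM in Mmrn1-high and 213 CPM in Mmrn1-low cells (-0.56 ± 0.03 SE), Ruvbl1, its partner, was at 98.8 CPM in Mmrn1-high and 121 CPM in Mmrn1-low cells (-0.29 ± 0.03), and Znhit6, another assembly factor, was at 25.1 CPM in Mmrn1-high and 32.4 CPM in Mmrn1-low cells (-0.37 ± 0.07). Of the core proteins, Fbl, the methyltransferase that acts on ribosomal RNA, differed by -0.18 ± 0.05 and Nop58 by -0.11 ± 0.03. Nhp2, a box H/ACA core protein, was at 127 CPM in Mmrn1-high and 200 CPM in Mmrn1-low cells (-0.66 ± 0.03), Naf1 and Shq1, assembly factors, differed by -0.36 ± 0.05 and -0.44 ± 0.09, and Dkc1, the pseudouridine synthase, by -0.14 ± 0.03. With library size alone the box C/D list had 4 lower and 0 higher and the box H/ACA list 3 lower and 0 higher, with medians of -0.14 and -0.21, so the direction held and the count did not. Without Mmrn1-high replicate 1, 6 box C/D genes were called lower, as with no filter and with a filter of 5 CPM. At an adjusted p under 0.01 in the edgeR test, 5 box C/D and 4 box H/ACA genes were called lower. Each FPKM fit called 3 box C/D genes lower, and 2 or 3 box H/ACA genes.

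Genes for the protein partners of Neat1 and Malat1 did not move as a list in 1 direction. Of 15 paraspeckle protein genes, 3 were called higher in Mmrn1-high cells, 4 lower and 8 were not called, with a median log2 fold change of -0.05. The share called was 46.7%, against 61.2% of all genes tested. DESeq2 called 1 higher, as did edgeR with no filter, with a block for the replicate number and at an adjusted p under 0.01. Without Mmrn1-low replicate 2 edgeR also called 1 higher, while each FPKM fit called 6 higher and 3 lower. Sfpq, a core paraspeckle protein, was at 601 CPM in Mmrn1-high and 686 CPM in Mmrn1-low cells (-0.19 ± 0.03 SE), while its partner Nono was at 486 CPM in Mmrn1-high and 458 CPM in Mmrn1-low cells (0.09 ± 0.02). Rbm14 (-0.65 ± 0.08), Taf15 (-0.39 ± 0.05) and Dazap1 (-0.31 ± 0.04) were also called lower, and Hnrnph3 (0.19 ± 0.05) and Cpsf7 (0.10 ± 0.04) higher. Of 14 nuclear speckle genes, 3 were called higher and 7 lower (71.4% called), with a median of -0.11. The splicing factor gene Srsf5 was called higher (0.31 ± 0.03) and Srsf2 lower (-0.25 ± 0.03). With library size alone these counts were 7 higher and 3 lower for paraspeckle genes and 5 higher and 1 lower for speckle genes, with medians of 0.09 and 0.04, so neither list had a direction that was free of the scaling.

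**Figure D5:**
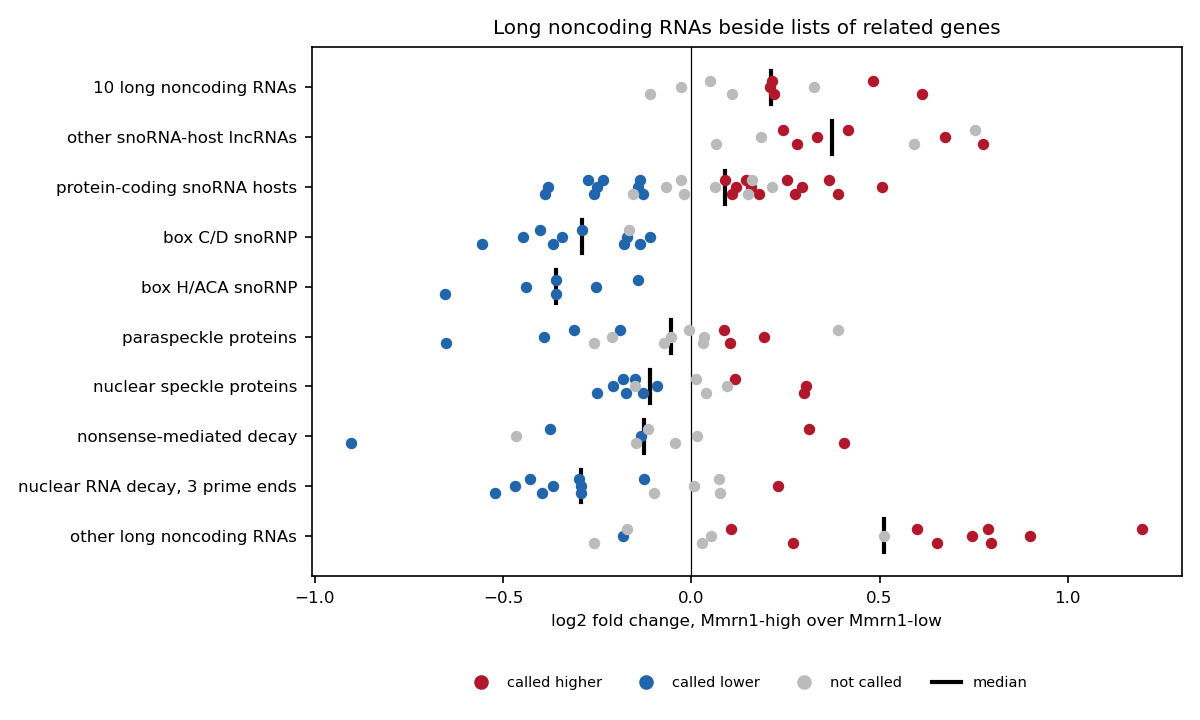
Log2 fold change, Mmrn1-high over Mmrn1-low, of each tested gene (points, red called higher, blue called lower, grey not called) of the 10 lncRNAs and of lists of related genes, with the median as a bar and a small vertical spread for legibility. Other snoRNA-host lncRNAs have a median of 0.37, box C/D snoRNP genes of -0.29 and box H/ACA snoRNP genes of -0.36.

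Genes that lie beside the lncRNAs on the chromosome were called in both directions. Zbtb37, which overlaps the start of Gas5 on the opposite strand, was called higher (0.51 ± 0.18 on the log2 scale, SE), with groups that overlapped. Near Neat1, Frmd8 was called higher in Mmrn1-high cells (0.14 ± 0.04). Beside Snhg12, Taf12, a subunit of the general transcription factor TFIID, was called lower (-0.30 ± 0.05), and Trnau1ap was not called (0.02 ± 0.13). Over the list of neighbours, 6 of 14 tested genes were called higher and 5 lower, with a median of -0.01. The share called was 78.6%, against 61.2% of all genes tested.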

How the data were processed

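Per the labels' protocols, RNA with a poly-A tail was captured on poly-T beads and made into stranded paired-end Illumina libraries. HISAT2, StringTie, edgeR, CASAVA 1.8 and the build GRCm38 are listed in the submitters' processing notes, without the role of each. No strand setting of the counting is stated, so reads of overlapping genes on opposite strands cannot be told apart. Per the file headers, the deposited table holds raw read counts and FPKM values per gene and library. FPKM was the authors' scaling of counts by length and total.

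Counts of all 55487 rows were fitted in edgeR 4.0.16 (R 4.3.3) with TMM factors, filterByExpr and the robust quasi-likelihood F test, 3 Mmrn1-high against 3 Mmrn1-low libraries, group as the only term. Called means a p under 0.05 after Benjamini-Hochberg adjustment over 15419 genes. Log2 fold changes are Mmrn1-high over Mmrn1-low. Totals were 11595104, 30909990 and 14236755 counts in Mmrn1-high and 16657398, 14288095 and 30180151 in Mmrn1-low replicates 1 to 3, and 3 counts correspond to 0.0925 to 0.245 CPM. The correlation of libraries was 0.992 to 0.993 within a group and 0.960 to 0.961 between groups (Pearson's r over genes, on log2 CPM, and genes are no independent replicates). No 2 libraries of a group agreed within sampling noise, with a mean chi-square per gene of 5.95 to 9.64 and a median of 0.779 to 1.09. Ratios within a library were tested by exact two-sided permutation over the 20 splits.

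The lncRNAs, the lists and the markers were chosen with earlier results of these data known, and no list was tested as a set. Named genes were the 10 lncRNAs, Mmrn1, the called genes with the smallest p of each list (1 or up to 3 in each direction), genes of the Kcnq1 domain and neighbours by annotation, of which some are not reported here. Flt3, Fbl, Nop58, Dkc1, the other called snoRNA-host lncRNAs and the lncRNAs named beside Xist were added after their values were seen. Genes with the most similar profile were taken at a mean of at least 10 CPM by Euclidean distance of centred log2 CPM. Predicted or clone-based names (Gm, Rik or accession-like) and mitochondrial genome transcripts were left out of that search. Gene models are GENCODE M21 (55227 of 55487 IDs matched) and promoters RefSeq GRCm38.p6.

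Alternatives were RLE factors, library size alone, no filter, 5 CPM in 3 libraries, DESeq2 1.42.0, a block for the replicate number, voom with quality weights (limma 3.58.1), Malat1 left out of totals, a stricter adjusted p (under 0.01), a minimum size of 1 in log2 fold change, limma-trend on log2(FPKM + 1) for genes at 1 FPKM or more in 3 libraries, the same with a pseudocount of 0.1 and with no filter, and leaving out each library. Leaving out rows at 1 in all libraries, and TMM factors from protein-coding genes, were added after seeing the data. Tables and figures used Python 3.11.15, pandas 2.3.3, SciPy 1.17.1 and matplotlib 3.10.9.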

Additional observations from a re-analysis of the deposited data

How the results depend on the processing

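Gas5, Malat1 and Snhg1 stayed called and higher in every refit in which they were tested, including each library left out, and were under an absolute log2 fold change of 1. Of the 10 lncRNAs, 3 were called higher at an adjusted p under 0.01 and 0 at a minimum log2 fold change of 1 in either direction, where 1736 genes were higher and 756 lower. With each library left out, 3 to 5 lncRNAs were higher (3 without Mmrn1-low replicate 2), 0 lower, 4399 to 4576 genes higher and 4185 to 4415 lower. The Malat1 share difference was then 0.0148 to 0.0166 percentage points, the log2 Malat1 to Neat1 ratio -0.32 to -0.02 and the log2 Gas5 to Malat1 ratio 0.38 to 0.44. On FPKM, genes lower were 3011 (pseudocount 0.1), 3020 (pseudocount 1, no filter) and 3019 (pseudocount 1), and in that order Snhg3 turned to 0.032, 0.030 and 0.030 and Snhg5 to 0.12, 0.075 and 0.075. With library size alone Snhg3 was 0.039 and Snhg5 0.12. Snhg5 was 0.022 with the 5 CPM filter. With a library left out, Snhg5 ranged from -0.092 to 0.047, positive without Mmrn1-high replicate 1 or Mmrn1-low replicate 3, and Snhg6 from -0.050 (without Mmrn1-high replicate 3) to 0.148. The cause of these turns was not tested, and none of these values was called. Deviations from the group means gave no sign that replicate numbers pair the libraries (correlations of same-numbered deviations 0.014, -0.129 and -0.025). Differently numbered ones ranged from -0.088 to 0.118, and such values cannot exclude a pairing. The replicate block left 4 lncRNAs higher, Snhg8 being lost at an edgeR adjusted p of 0.0574. Kcnq1ot1 was not tested in the filtered FPKM fits. The 3 libraries a group limit every permutation test to p = 0.1.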

Other observations

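RNA of genes for the machinery that trims and removes nuclear RNA was mostly lower in Mmrn1-high cells. Of 14 tested genes for nuclear RNA decay and 3' end processing, 9 were called lower, 1 higher and 4 were not called. The median log2 fold change was -0.29. With library size alone it was -0.15, with 8 called lower and 2 higher. Of all genes tested, 30.5% were called lower. Mtrex, the helicase that feeds RNA to the nuclear exosome, was at 110 CPM in Mmrn1-high and 141 CPM in Mmrn1-low cells (-0.37 ± 0.04 SE), and Zfc3h1, a scaffold of the complex that targets polyadenylated nuclear RNA for decay, was the gene called higher (0.23 ± 0.05). Nonsense-mediated decay, which removes spliced snoRNA-host RNAs in the cytoplasm, had 2 of 10 genes called higher and 3 lower. The kinase Smg1 (0.31 ± 0.03) and the endonuclease Smg6 (0.41 ± 0.07) were higher, and Smg8 (-0.90 ± 0.06), the helicase Upf1 (-0.38 ± 0.03) and Upf3b (-0.13 ± 0.05) were lower. With library size alone this list had 3 higher and 2 lower.

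Of 15 other named lncRNAs tested, 9 were called higher in Mmrn1-high cells and 1 lower. The median log2 fold change was 0.51, the same as for all 769 lncRNA genes tested, of which 44.5% were called higher and 8.19% lower. DESeq2 tested 22 of the list and called 7 higher and 1 lower. Xist, which silences an X chromosome, was at 635 CPM in Mmrn1-high and 368 CPM in Mmrn1-low cells (0.79 ± 0.02 SE). Its neighbours Jpx (1.20 ± 0.13) and Ftx (0.60 ± 0.09), and Firre, an X-linked nuclear lncRNA (0.90 ± 0.04), were also called higher. The gene called lower was 2900097C17Rik (-0.18 ± 0.03), a call that was not made with library size alone, where 10 were higher and 0 lower.

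Profiles most like those of the lncRNAs were sought among genes of at least 10 CPM, leaving out predicted or clone-based names and mitochondrial genome transcripts. By Euclidean distance of centred log2 CPM over the 6 libraries, the nearest to Malat1 were Rpl24 (0.0372) and Atl3 (0.0372). The nearest to Neat1 were Tmem159 (0.133) and Srp14 (0.145), and to Kcnq1ot1 Prrc2b (0.0145) and Urgcp (0.0528). For Gas5 they were Prkx (0.0631) and Pts (0.0659). Tmem159 was at 12.6, 12.1 and 13.3 CPM in Mmrn1-high replicates 1 to 3 and at 12.2, 8.85 and 7.87 CPM in Mmrn1-low replicates 1 to 3. Like Neat1, it was highest within its group in Mmrn1-low replicate 1.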
